A study of Mus musculus with 8 samples.

Results

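The genes examined encode proteins that coat, enlarge or help form cytosolic lipid droplets, the stores of neutral fat that accumulate in a fatty liver. They are the perilipins Plin2, Plin3, Plin4 and Plin5, the CIDE genes Cidea, Cideb and Cidec, the fat storage-inducing transmembrane genes Fitm1 and Fitm2, and G0s2, an inhibitor of droplet lipolysis. Members were found by symbol in a table of read counts per gene from mouse liver, and all 10 had a row of their own among 22946 rows, none of them merged with another gene. The RNA came from livers of C57 Black mice that were 8 weeks old when an 8-week period on either high fat diet (HFD) or chow began. Mice were either labelled MLL4 het, that is heterozygous for a gene of an H3K4 methyltransferase that acts at enhancers (symbol Kmt2d), or wild-type. Each of the 4 groups held 2 libraries, namely het HFD (libraries 7 and 8), het chow (3 and 4), wild-type HFD (5 and 6) and wild-type chow (1 and 2). Beyond strain, genotype and diet the labels state neither the targeted allele nor the sex of the mice. The study's design text asks which genes HFD alters in wild-type liver and alters less in MLL4 het liver.

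Lipid droplets consist of a core of triglyceride and sterol ester inside a single layer of phospholipid, on which the coat proteins sit. PLIN2 and PLIN3 are made in most tissues, PLIN5 mainly in tissues that burn fatty acids, and PLIN4 mainly in adipose tissue and muscle. CIDEA and CIDEC gather at contacts between droplets and let lipid pass into the larger one, and CIDEB in hepatocytes takes part in the lipid loading of very low density lipoprotein. FIT proteins of the endoplasmic reticulum aid droplet formation, and G0S2 binds and inhibits the triglyceride lipase ATGL, the product of Pnpla2. Several of these genes, Plin2 and Cidec among them, are known targets of the nuclear receptors PPARA and PPARG.

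Libraries held between 14142884 and 18928676 counts, and levels are given as CPM, counts per 1e+06 counts of the library with its TMM scaling factor. A count of 3 equalled between 0.161 and 0.213 CPM. Kmt2d, listed as Mll2, had 62.7 and 75.3 CPM in het HFD, 59.9 and 72.0 in het chow, 63.3 and 64.6 in wild-type HFD, and 61.2 and 69.6 in wild-type chow libraries. It was thus no lower with the MLL4 het label, at a log2 difference from wild type of 0.11 ± 0.12 on HFD and 0.01 ± 0.13 on chow (± SE, edgeR adjusted p = 0.760 and 0.9754). Gene-level counts cannot show an altered transcript of unaltered amount, so the term het-labelled is used, and every direction between genotypes rests on that label. The 10 hepatocyte markers summed to 81632 to 85353 CPM in het HFD, 93690 to 98357 in het chow, 84354 to 84859 in wild-type HFD and 94948 to 101705 in wild-type chow libraries, so that HFD libraries lay under chow libraries in both genotypes. Most of each sum was Alb, whose change on HFD did not pass in het-labelled or wild-type livers (edgeR adjusted p = 0.269 and 0.432). Of the 10, Cps1 and Fgb fell on HFD in wild-type livers (edgeR adjusted p = 0.0188 and 0.0446), where 279 of 12593 tested genes fell. In het-labelled livers edgeR called 0 of the 10, while DESeq2 called Apoa1 higher and Fgb lower. Log2 changes on HFD were positive for 3 of the 10 in het-labelled livers (Apoa1, Cyp2e1 and Tat) and 2 in wild-type livers (Tat and Ttr). Of the 10 adipocyte markers, 5 that define fat cells or brown fat cells (Adipoq, Lep, Retn, Plin1 and Ucp1) summed to 2 to 6 counts per library in het HFD, 0 to 1 in het chow, 1 to 2 in wild-type HFD and 0 to 1 in wild-type chow. Of the other 5, Cfd, adipsin, had 90 and 4 counts in het HFD, 0 and 1 in het chow, 363 and 237 in wild-type HFD, and 8 and 10 in wild-type chow libraries, and rose on HFD in wild-type livers (log2 change 4.94 ± 0.81, edgeR adjusted p = 0.0131). Cfd passed the filter on low counts only through HFD libraries, so its test for a rise on HFD depends on them. Adrb3, an adrenergic receptor of fat cells, fell on HFD in wild-type livers and was lower in het-labelled than in wild-type livers on chow (log2 changes -1.32 ± 0.23 and -1.77 ± 0.25, edgeR adjusted p = 0.0171 and 0.0407). Fabp4, of the same list, had 63 to 130 counts per library. Its log2 change on HFD in wild-type livers was 0.51 ± 0.18, and its genotype difference on HFD was -0.46 ± 0.18. Neither passed (edgeR adjusted p = 0.171 and 0.318), though groups did not overlap in either comparison. For Nrg4 the same 2 values were 0.59 ± 0.27 and -0.48 ± 0.27, and neither passed (edgeR adjusted p = 0.278 and 0.476). The whole adipocyte list, most of it Pck1, which hepatocytes also make, summed to 1547 to 1661 CPM in het HFD, 1402 to 1587 in het chow, 1706 to 1912 in wild-type HFD and 2159 to 2526 in wild-type chow libraries. Summed over 11 Kupffer cell and macrophage markers, levels ran from 184 to 294 CPM in het HFD, from 434 to 527 in het chow, from 179 to 183 in wild-type HFD and from 178 to 196 in wild-type chow libraries. Of these 11, 6 were higher in het-labelled than in wild-type livers on chow and 8 fell on HFD in het-labelled livers (edgeR, adjusted p under 0.05). Of all 12593 tested genes, 41 were higher with the het label on chow and 187 fell on HFD in het-labelled livers. Blood markers, 6 genes, summed to 68.5 to 80.5 CPM in het HFD, 75.9 to 90.1 in het chow, 147 to 148 in wild-type HFD and 126 to 127 in wild-type chow libraries. Most of that sum was Alas2, the haem synthesis enzyme of red cell precursors, which was lower in het-labelled livers on both diets (log2 differences -1.10 ± 0.10 on HFD and -0.81 ± 0.10 on chow, edgeR adjusted p = 0.00411 and 0.0262). The part of these cells in the results was not tested. In whole liver, fewer cells of a type and less RNA per cell cannot be told apart. The labels do not state whether a group's libraries stem from different animals, and p-values therefore cover only how these libraries vary within a group, a spread that may be technical.

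Because the series title names the nuclear receptor PPARG, in its form PPARγ2, the stretches just before the starts of 4 members with changed RNA are shown, taken from RefSeq on assembly GRCm38.p6. The counts were made on mm9, and a count per gene does not show which start was used. Each line gives the 250 bases before a start, read 5′ to 3′ on the strand of the gene, and capitals mark the nuclear receptor core motif AGGTCA or its reverse complement. Cidec and Fitm1 are shown since, of the members with reads in every library, they differ most between the genotypes on HFD. Plin2 and the Plin5 start farther upstream are shown since they carry the motif, and the Plin5 start farther downstream is not shown.
Cidec, start farther upstream, chr6:113435761-113436010, minus strand: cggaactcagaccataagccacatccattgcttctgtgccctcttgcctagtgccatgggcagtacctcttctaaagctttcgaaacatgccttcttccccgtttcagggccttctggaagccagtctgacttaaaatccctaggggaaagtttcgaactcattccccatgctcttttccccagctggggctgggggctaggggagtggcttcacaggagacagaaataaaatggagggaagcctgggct
Cidec, start farther downstream, chr6:113434765-113435014, minus strand: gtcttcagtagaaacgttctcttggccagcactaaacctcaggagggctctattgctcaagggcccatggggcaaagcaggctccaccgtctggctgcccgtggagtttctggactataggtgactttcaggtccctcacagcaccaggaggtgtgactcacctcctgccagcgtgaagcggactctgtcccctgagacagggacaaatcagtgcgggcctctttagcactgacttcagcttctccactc
Plin2, chr4:86670060-86670309, minus strand: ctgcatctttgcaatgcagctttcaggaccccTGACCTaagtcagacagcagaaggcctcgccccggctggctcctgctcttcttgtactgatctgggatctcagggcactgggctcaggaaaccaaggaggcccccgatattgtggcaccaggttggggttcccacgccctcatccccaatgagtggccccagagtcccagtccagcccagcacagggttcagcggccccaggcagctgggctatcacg
Plin5, start farther upstream, chr17:56117549-56117798, minus strand: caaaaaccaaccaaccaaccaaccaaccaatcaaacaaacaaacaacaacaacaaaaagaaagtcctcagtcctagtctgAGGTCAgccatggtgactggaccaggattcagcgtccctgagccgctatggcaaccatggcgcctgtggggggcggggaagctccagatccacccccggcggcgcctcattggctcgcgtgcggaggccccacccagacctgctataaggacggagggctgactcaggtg
Fitm1, chr14:55575424-55575673, plus strand: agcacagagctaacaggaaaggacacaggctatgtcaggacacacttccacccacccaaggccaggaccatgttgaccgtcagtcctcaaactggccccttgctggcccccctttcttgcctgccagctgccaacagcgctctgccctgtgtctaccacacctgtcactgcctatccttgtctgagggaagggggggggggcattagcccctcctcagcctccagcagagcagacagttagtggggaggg
The core motif, searched on both strands, was found 1 time before Plin2 and 1 time before the Plin5 start farther upstream, beginning 218 and 170 bases before the start. It was not among the letters before either Cidec start, before the Plin5 start farther downstream, before Fitm1, or before Cideb, Plin3, Plin4, Fitm2 and G0s2. Cidea was not searched. Of 32851 promoter stretches of this length, 14% held it. A direct repeat of AGGTCA with 1 base between the copies, searched on both strands, was in none of these members' stretches and in 0.0335% of all stretches. The same repeat built of AGGNCA, which includes the stricter one, was also in none of them and in 0.338% of all stretches.

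On HFD against chow, G0s2 rose in het-labelled livers, and 5 members including G0s2 rose in wild-type livers. The difference between these diet changes has its own test, given after the single genes. The rise of G0s2 in het-labelled livers is 1 of 10 members, where 1.53% of the 12593 tested genes rose (edgeR quasi-likelihood test, adjusted p under 0.05). Cidec, Plin2, Plin4, Plin5 and G0s2 rose in wild-type livers, 5 of 10, where 2.37% of tested genes rose. On HFD, Cidec, Fitm1, Plin4 and Plin2 were lower in het-labelled than in wild-type livers, 4 of 10, where 0.349% of tested genes were lower. On chow, Fitm1 was lower in het-labelled livers, 1 of 10, where 0.191% of tested genes were lower. No member passed the test in the other direction in any of these comparisons. The 4 comparisons share libraries in pairs, since the wild-type HFD libraries enter both the diet change in wild-type livers and the genotype difference on HFD.

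**Figure D1:**
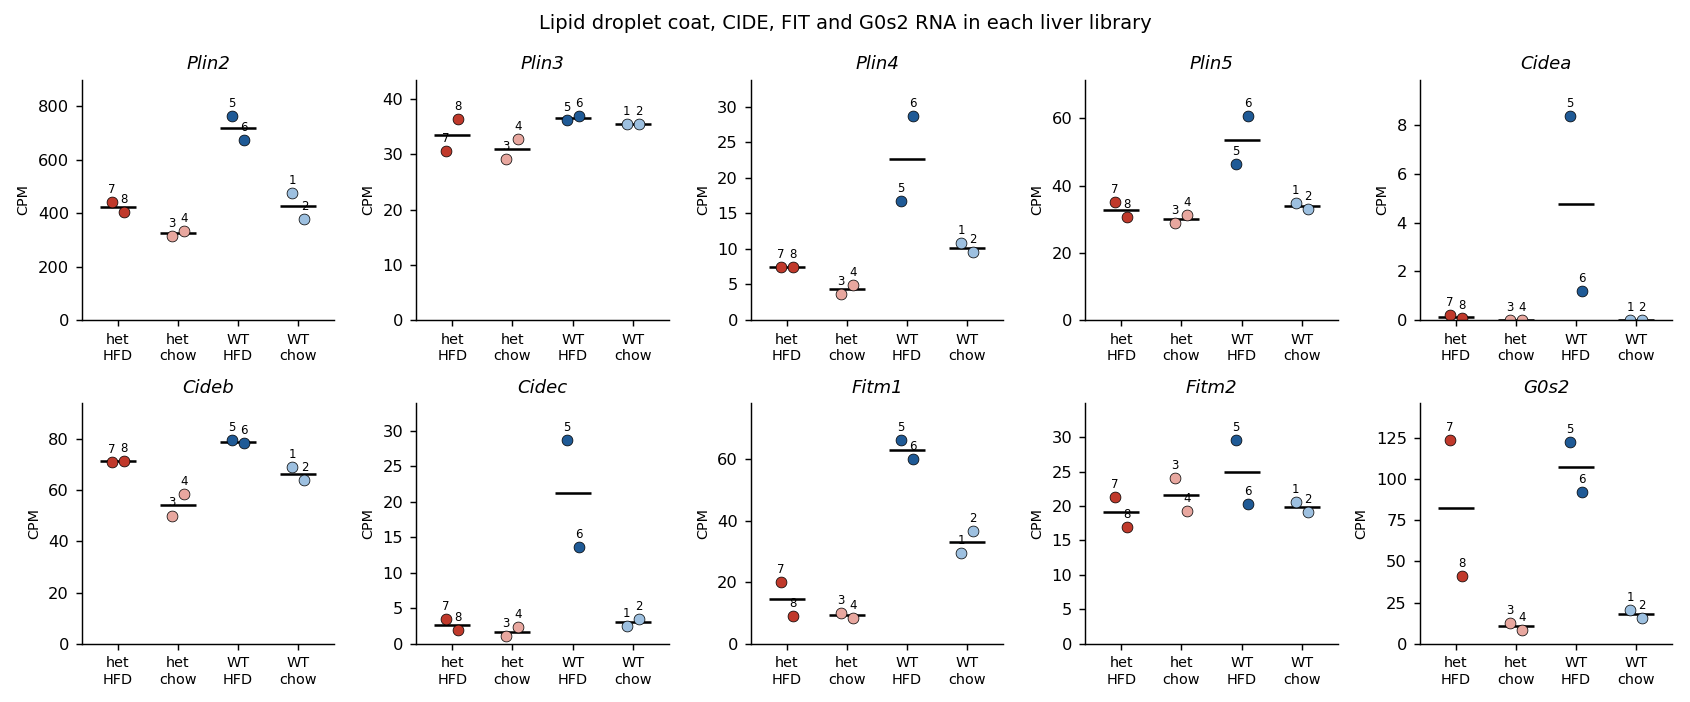
Level of each member in CPM (vertical axes, each from 0) in the 8 libraries, by group from left to right as het HFD, het chow, wild-type HFD and wild-type chow; points are libraries with their number and lines are means of 2. Wild-type HFD libraries are the highest for Plin2, Plin4, Plin5, Cidec and Fitm1, and for G0s2 the het HFD library 7 reaches the wild-type HFD level.

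All 10 members passed the filter on low counts, Cidea only through the wild-type HFD libraries, so Cidea is left out of the next counts. In het-labelled livers 8 of the 9 other members had a positive log2 change on HFD (median 0.39, against -0.01 over all tested genes), and the 2 groups did not overlap for 4, where 22.3% of tested genes were higher without overlap. In wild-type livers 9 of 9 were positive (median 0.75, against 0.02), and 8 did not overlap, where the background was 30.6%. Between genotypes on HFD, 9 of 9 were negative in het-labelled livers (median -0.71, against 0.00), and 6 did not overlap, where 24.3% of tested genes were lower without overlap. On chow 8 of 9 were negative (median -0.39, against 0.01), and 8 did not overlap, where the background was 21.9%.

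**Figure D2:**
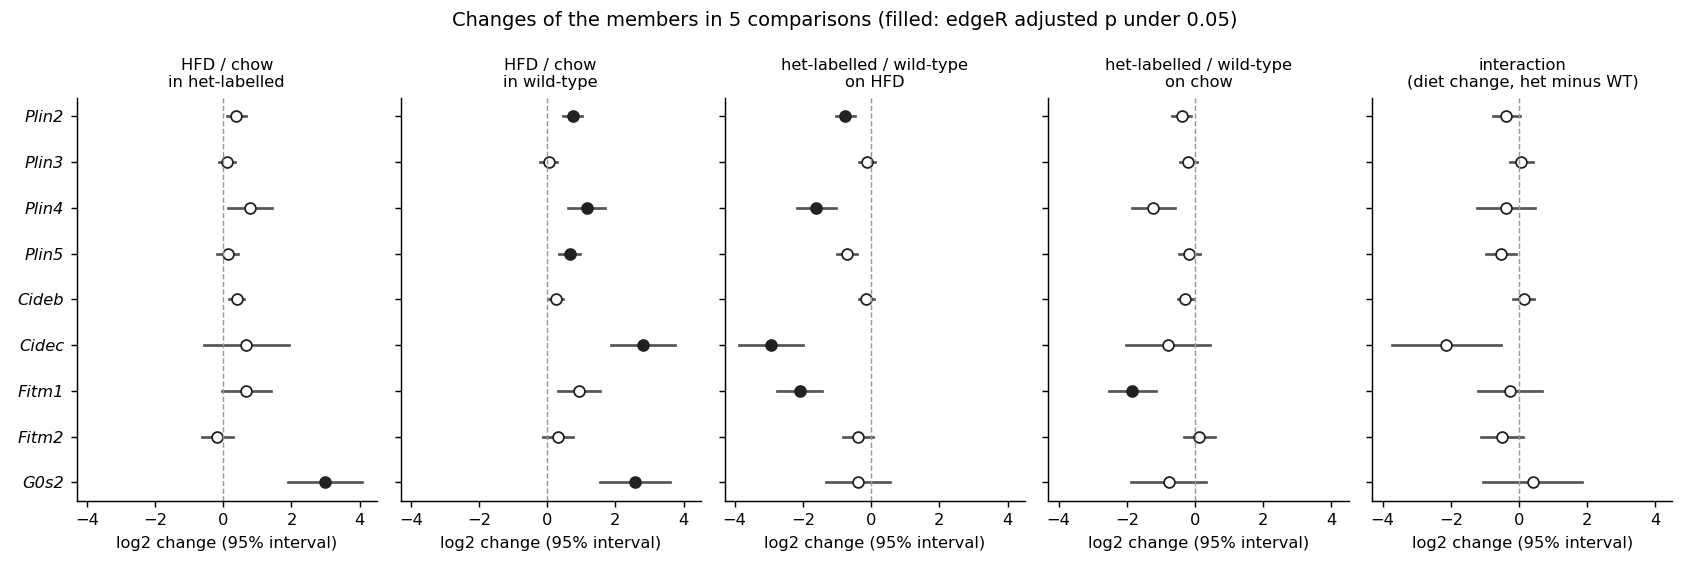
Log2 change of 9 members with its 95% interval (horizontal axis) in 5 comparisons; filled points passed the edgeR test at an adjusted p under 0.05, and Cidea is left out because its chow libraries held 0 counts. Filled points stand to the right for 1 gene in het-labelled and 5 genes in wild-type livers and to the left for 4 genes between genotypes on HFD and 1 on chow, and no point is filled for the interaction.

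Per exon length, Plin2 had the highest mean level of the members in every group. Divided by the merged exon length in the GENCODE M21 annotation, an approximation since the counts use another annotation, its level was 121 ± 7.49 CPM per kb in het HFD, 92.4 ± 3.99 in het chow, 205 ± 17.5 in wild-type HFD and 121 ± 19.3 in wild-type chow livers (SD, n = 2). By group means G0s2 followed it on HFD in both genotypes, with 94.4 ± 67.2 CPM per kb in het HFD, 12.0 ± 3.56 in het chow, 123 ± 24.6 in wild-type HFD and 20.6 ± 3.76 in wild-type chow livers, where on chow Cideb came next to Plin2 with 36.6 ± 4.03 in het-labelled and 44.6 ± 2.45 in wild-type livers. In het HFD library 7 G0s2 was above Plin2, at 142 against 126 CPM per kb, and in library 8 it was at 46.9, just under Cideb at 48.1. Fitm1 stood at 65.0 ± 4.56 CPM per kb in wild-type HFD and 34.1 ± 5.11 in wild-type chow livers, above Fitm2 at 6.28 ± 1.66 and 5.01 ± 0.24. Cidec and Plin4 lay near the lower end, at 0.928 to 11.4 and 0.748 to 3.92 CPM per kb as group means.

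**Figure D3:**
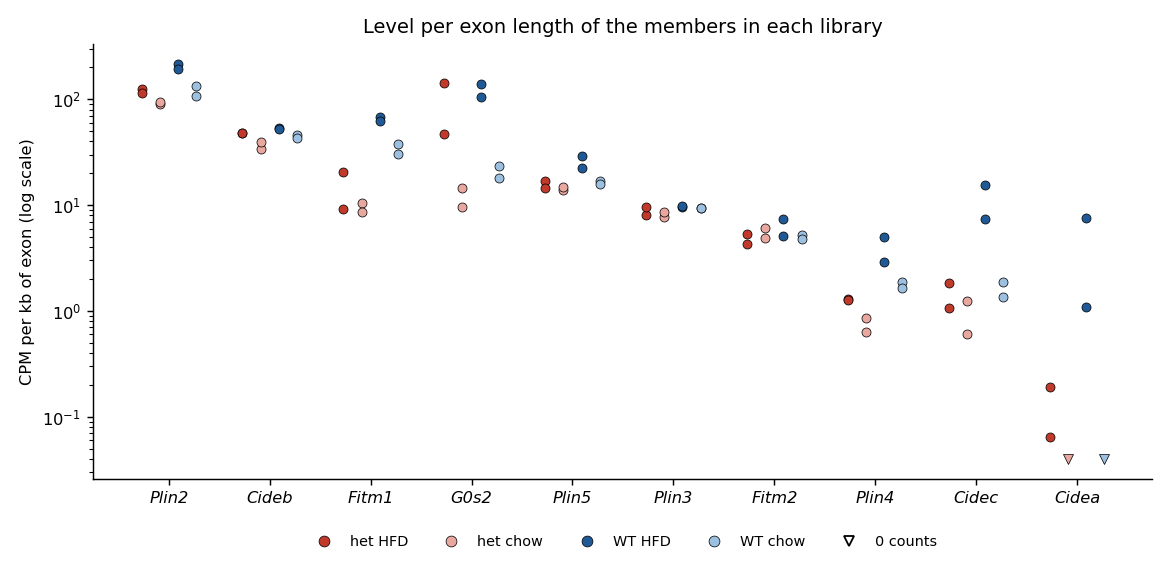
CPM per kb of merged exon (vertical axis, log scale) for each member and library, with groups from left to right as het HFD, het chow, wild-type HFD and wild-type chow; triangles at the bottom mark libraries with 0 counts. Plin2 is the highest member in each group mean, and G0s2 has the next highest mean on HFD, with het HFD library 7 above Plin2 and library 8 just under Cideb.

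Among the perilipins, Plin2 RNA, which codes for the main droplet coat of hepatocytes, was measured with the most reads. Plin2 stood at 443 and 405 CPM in het HFD libraries 7 and 8, 315 and 335 in het chow 3 and 4, 762 and 675 in wild-type HFD 5 and 6, and 474 and 378 in wild-type chow 1 and 2. The wild-type HFD libraries were above all others, het HFD overlapped wild-type chow, and het chow was lowest without overlap. In het-labelled livers the log2 change on HFD was 0.38 ± 0.12 and did not pass (edgeR adjusted p = 0.137). In wild-type livers Plin2 rose on HFD by a log2 change of 0.75 ± 0.12 (95% interval 0.48 to 1.03, adjusted p = 0.0125), a 1.69-fold difference. On HFD it was lower in het-labelled livers, with a log2 difference of -0.76 ± 0.12 (95% interval -1.04 to -0.48, edgeR adjusted p = 0.0455). The chow difference of -0.39 ± 0.12 failed the edgeR test (adjusted p = 0.188). The diet call ended without library 2 (adjusted p = 0.0864) or 5 (0.0949), with adjusted p from 1.22e-05 to 0.0949 over 15 alternatives. The genotype call, whose adjusted p ran from 1.65e-05 to 0.242, ended without library 1, 2, 5, 6, 7 or 8 (up to 0.242) and with only the 4 libraries compared (0.0621), while the log2 difference kept between -0.84 and -0.67.

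Plin4 had fewer reads and a wider range. It stood at 7.51 and 7.39 CPM in het HFD libraries, 3.68 and 4.96 in het chow, 16.7 and 28.6 in wild-type HFD, and 10.8 and 9.50 in wild-type chow. No 2 groups overlapped, and the order from high to low was wild-type HFD, wild-type chow, het HFD and het chow, so that het-labelled livers on HFD lay under wild-type livers on chow. The log2 change on HFD was 0.78 ± 0.29 in het-labelled livers, which did not pass (edgeR adjusted p = 0.190), and 1.16 ± 0.24 in wild-type livers (95% interval 0.62 to 1.70, adjusted p = 0.0306). Between genotypes Plin4 was lower in het-labelled livers on HFD, with a log2 difference of -1.60 ± 0.25 (95% interval -2.16 to -1.05, edgeR adjusted p = 0.0378). On chow the difference was -1.22 ± 0.28 and did not pass (adjusted p = 0.0960), although it passed with DESeq2 (0.00306) and without a filter on low counts (0.0189), over a range of 0.00306 to 0.395. The diet call in wild-type livers ended without library 1, 2 or 6 (adjusted p = 0.183, 0.185 and 0.135, from 0.00091 to 0.185 over all alternatives), and without library 6 the log2 change was 0.72. The genotype call on HFD ended without library 1, 2, 6, 7 or 8 and with only the 4 libraries compared, with adjusted p from 1.67e-06 to 0.169, and without library 6 the log2 difference was -1.16. In GENCODE M21 the exons of Plin4 and Hdgfl2 share 17 bases on opposite strands, and strand use in the counts is not stated. Hdgfl2, listed as Hdgfrp2, had a log2 change of 0.10 ± 0.11 on HFD in wild-type livers and a genotype difference of -0.17 ± 0.11 on HFD, neither of which passed (edgeR adjusted p = 0.673 and 0.544).

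Plin5, which holds droplets close to mitochondria, lay at 35.0 and 30.6 CPM in het HFD libraries, 29.0 and 31.1 in het chow, 46.5 and 60.6 in wild-type HFD, and 35.0 and 33.0 in wild-type chow. Wild-type HFD libraries lay above all others. The other 3 groups lay within 28.97 to 35.01 CPM, where het HFD overlapped both chow groups and het chow lay under wild-type chow without overlap. On HFD the log2 change of Plin5 was 0.13 ± 0.14 in het-labelled livers (95% interval -0.18 to 0.44, edgeR adjusted p = 0.690), and it rose in wild-type livers by 0.66 ± 0.13 (95% interval 0.36 to 0.96, adjusted p = 0.0289). On HFD the genotype difference was -0.71 ± 0.13 and did not pass (edgeR adjusted p = 0.0627), while it passed with library totals alone (0.0495), DESeq2 (0.00389), no filter (0.0118) and a robust prior (0.0447), over a range of 0.00389 to 0.296. The diet call ended without library 1, 2 or 6 (adjusted p = 0.188, 0.180 and 0.167, from 0.00657 to 0.188 over all alternatives), and without library 6 the log2 change was 0.45. Plin3, the perilipin that moves from cytosol to newly formed droplets, was between 29.2 and 36.9 CPM in all 8 libraries. Its log2 change on HFD was 0.04 ± 0.11 in wild-type livers (95% interval -0.20 to 0.28), and its genotype difference on HFD was -0.13 ± 0.11 (95% interval -0.37 to 0.12), neither of which passed (edgeR adjusted p = 0.873 and 0.658).

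Of the CIDE genes, Cidec had the largest fitted genotype difference on HFD among the members with reads in every library. Cidec stood at 3.43 and 1.99 CPM in het HFD libraries 7 and 8, 1.13 and 2.31 in het chow 3 and 4, 28.7 and 13.7 in wild-type HFD 5 and 6, and 2.52 and 3.48 in wild-type chow 1 and 2. These levels come from 64 and 28, 16 and 34, 498 and 250, and 40 and 60 counts in the same order. Wild-type HFD libraries lay above all others, while wild-type chow, het HFD and het chow, in that order, each overlapped the next. The log2 change on HFD was 0.68 ± 0.54 in het-labelled livers (95% interval -0.56 to 1.91, edgeR adjusted p = 0.582) and 2.81 ± 0.41 in wild-type livers (95% interval 1.88 to 3.74, adjusted p = 0.00833), a 7.02-fold rise. On HFD Cidec was lower in het-labelled livers by a log2 difference of -2.93 ± 0.41 (95% interval -3.87 to -1.99, edgeR adjusted p = 0.0317), while on chow the difference was -0.79 ± 0.54 and did not pass (adjusted p = 0.523). The diet call ended without library 1 (adjusted p = 0.103) or 2 (0.0618), with values from 3.52e-11 to 0.103 over the alternatives. The genotype call ended without library 1, 2, 5 or 8, with only the 4 libraries compared and with a robust prior, with adjusted p from 2.2e-11 to 0.135, and the log2 difference lay between -3.40 and -2.30.

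Cidea, whose protein is best known from brown fat and which appears in fatty liver, had 4 and 1 counts in het HFD libraries 7 and 8, 0 and 0 in het chow, 145 and 22 in wild-type HFD 5 and 6, and 0 and 0 in wild-type chow. Reads were thus concentrated in wild-type HFD livers, at 8.36 CPM in library 5 and 1.20 CPM in library 6. Set against 3 counts per library, the wild-type HFD mean of 4.78 ± 5.06 CPM (SD, n = 2) was at least 26.4-fold higher than wild-type chow, a bound that is 46.1-fold for library 5 alone and 6.63-fold for library 6 alone. It did not pass (edgeR adjusted p = 0.0538), and adjusted p ran from 0.00456 to 0.251 over 15 alternatives, of which 6 passed. Between genotypes on HFD Cidea did not pass (edgeR adjusted p = 0.160), except without a filter (0.0244) and without library 6 (0.0296), over a range of 0.0244 to 0.520, and het HFD levels near the floor allow no fold. Ucp1, the uncoupling protein of brown fat cells, had 1 count in het HFD library 7 and 0 in the 7 other libraries, and Plin1, the perilipin of fat cells, had 1 count in wild-type chow library 1 and 0 elsewhere.

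Cideb, the CIDE gene of normal hepatocytes, lay at 71.2 and 71.5 CPM in het HFD libraries, 50.1 and 58.6 in het chow, 79.7 and 78.4 in wild-type HFD, and 69.0 and 63.9 in wild-type chow. No groups overlapped, in a range far narrower than that of Cidec, and HFD was above chow in both genotypes. The log2 change on HFD was 0.39 ± 0.10 in het-labelled livers (95% interval 0.17 to 0.61) and 0.25 ± 0.10 in wild-type livers (95% interval 0.03 to 0.47), and neither passed (edgeR adjusted p = 0.0703 and 0.196). Without library 4 the change in het-labelled livers passed (adjusted p = 0.0466, over a range of 0.0466 to 0.229). The genotype differences, -0.15 ± 0.10 on HFD and -0.29 ± 0.10 on chow, did not pass (edgeR adjusted p = 0.547 and 0.214). Of 1488 merged exon bases of Cideb in GENCODE M21, 1136 overlap Nop9 on the other strand, so these counts are uncertain. Nop9, listed as 2610027L16Rik, had log2 changes on HFD of 0.04 ± 0.10 in het-labelled and 0.14 ± 0.10 in wild-type livers, neither of which passed (edgeR adjusted p = 0.890 and 0.523).

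Of the FIT genes, Fitm1 was lower in het-labelled livers on both diets, and Fitm2 passed in no comparison. Fitm1 is known chiefly from skeletal muscle and heart, and Fitm2 is made more widely. Fitm1 stood at 20.0 and 8.96 CPM in het HFD libraries 7 and 8, 10.1 and 8.36 in het chow 3 and 4, 66.2 and 59.9 in wild-type HFD 5 and 6, and 29.6 and 36.6 in wild-type chow 1 and 2. All 4 het-labelled libraries lay under all 4 wild-type libraries. The genotype log2 difference was -2.10 ± 0.29 on HFD (95% interval -2.76 to -1.44, edgeR adjusted p = 0.0304) and -1.84 ± 0.31 on chow (95% interval -2.54 to -1.15, adjusted p = 0.0482), which are 0.233-fold and 0.279-fold levels. In het-labelled livers the log2 change on HFD was 0.67 ± 0.32 and did not pass (edgeR adjusted p = 0.312). It was 1.12 without library 8 (adjusted p = 0.0185) and -0.04 without library 7 (adjusted p = 0.948), which are its lowest and highest adjusted p over the alternatives. In wild-type livers, where the 2 HFD libraries lay above the chow ones, the log2 change of 0.93 ± 0.27 did not pass (edgeR adjusted p = 0.101). It passed with DESeq2, without a filter, with only the 4 libraries compared, and without library 7 or 8 (0.00266 to 0.481 over all alternatives).

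The genotype difference of Fitm1 on HFD ended as a call without library 1, 2, 5 or 6, with only the 4 libraries compared and with a robust prior, with adjusted p from 3.94e-13 to 0.110 and log2 differences between -2.81 (without library 7) and -1.66 (without library 8). On chow the call ended without library 1, 2, 3, 4, 5 or 6 and with a robust prior, with adjusted p from 5.08e-09 to 0.326 and log2 differences between -2.00 and -1.68. Skeletal muscle markers could be read beside it: 5 of the 10, Acta1 and Ckm among them, had 0 counts in all libraries, and the list summed to 0.504 to 1.22 CPM per library with all groups between these values. In GENCODE M21 109 of the 971 exon bases of Fitm1 overlap Gm15932 on the other strand, which was not analysed here. Fitm2 lay at 21.3 and 17.0 CPM in het HFD libraries, 24.1 and 19.2 in het chow, 29.6 and 20.3 in wild-type HFD, and 20.5 and 19.2 in wild-type chow. Neighbouring groups all overlapped. Its log2 differences between genotypes were -0.37 ± 0.19 on HFD (95% interval -0.81 to 0.07) and 0.13 ± 0.20 on chow (95% interval -0.32 to 0.57), and neither passed (edgeR adjusted p = 0.442 and 0.806). Of the 3967 exon bases of Fitm2 in GENCODE M21, 227 overlap 2310001K24Rik on the other strand.

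G0s2 was the member that rose on HFD in both genotypes. It stood at 124 and 40.9 CPM in het HFD libraries 7 and 8, 12.7 and 8.30 in het chow 3 and 4, 122 and 91.9 in wild-type HFD 5 and 6, and 20.2 and 15.6 in wild-type chow 1 and 2. HFD libraries were above chow libraries of either genotype without overlap, and het HFD library 7 lay as high as the wild-type HFD libraries while library 8 lay under them. The log2 change on HFD was 2.98 ± 0.48 in het-labelled livers (95% interval 1.90 to 4.06, edgeR adjusted p = 0.0189) and 2.58 ± 0.45 in wild-type livers (95% interval 1.56 to 3.61, adjusted p = 0.0168), which are 7.88-fold and 5.98-fold rises. Neither genotype difference passed, at -0.37 ± 0.41 on HFD and -0.77 ± 0.48 on chow (edgeR adjusted p = 0.749 and 0.487). The difference on HFD was -1.39 without library 7 (adjusted p = 0.0470) and 0.21 without library 8 (adjusted p = 0.865), within a range of 0.0470 to 0.9999 over the alternatives. The call in het-labelled livers ended without library 3 or 4, with only the 4 libraries compared and with a robust prior, with adjusted p from 0.000102 to 0.105, and the log2 change was 1.97 without library 7 and 3.56 without library 8. The call in wild-type livers ended without library 1, 2, 5 or 6 and with a robust prior, with adjusted p from 0.000221 to 0.132.

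The 2 wild-type HFD libraries were not high for the same members. Library 5 was above library 6 for Cidea, Cidec, Fitm2 and G0s2, by 6.96, 2.10, 1.46 and 1.33 times. Library 6 was above library 5 for Plin4 and Plin5, by 1.72 and 1.302 times. For Plin2, Fitm1, Plin3 and Cideb these libraries were within 1.13 times of each other.

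Whether the diet change differs between genotypes, which the study's choice of target genes turns on, was tested with the interaction. No member passed, and neither did any of the 12593 tested genes with edgeR, of which 900 had an unadjusted p under 0.05, 2 of them members. The 2 were Cidec, whose diet change was 0.68 in het-labelled and 2.81 in wild-type livers (difference -2.13, 95% interval -3.73 to -0.54, unadjusted p = 0.0144, adjusted p = 0.628), and Plin5, with 0.13 and 0.66 (difference -0.53, 95% interval -0.96 to -0.10, unadjusted p = 0.0211, adjusted p = 0.655). Plin2 had a difference of -0.37 (95% interval -0.76 to 0.02), and Plin4 of -0.38 (95% interval -1.23 to 0.47). For Fitm1 it was -0.26 (95% interval -1.21 to 0.69) and for G0s2 0.40 (95% interval -1.04 to 1.84), so that neither sign was shown. DESeq2 called 28 of the 7826 genes it gave an adjusted p, 0 of them members.

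The lists beside the members were chosen with earlier results of these data known. Of 30 other droplet proteins, enzymes and lipases listed, 27 were tested. Between genotypes on HFD 1 of the 27 was lower in het-labelled livers, Mogat1, an acyltransferase that makes diacylglycerol, at 0.481 ± 0.078 CPM in het HFD and 3.86 ± 2.05 CPM in wild-type HFD livers (SD, n = 2; log2 difference -2.96 ± 0.47, edgeR adjusted p = 0.0443). DESeq2 called 4 of them lower, Mogat1 with Agpat9, Hsd17b13 and Lpin2, and 1 higher, Ces3b. Of all 12141 genes it gave an adjusted p, it called 171 lower and 63 higher. Over the 27 genes the median was -0.18, against -0.71 for the 9 members without Cidea and 0.00 for all tested genes. On chow 0 of 27 were called by edgeR, 5 at an unadjusted p under 0.05, and 3 by DESeq2. Over all 12593 tested genes on chow, 1932 had an unadjusted edgeR p under 0.05, a share near that of the 5 of 27. DESeq2 called 217 of 12473 genes on chow. On HFD Pnpla3, Mgll and Dgat2 rose in het-labelled livers, where 193 of 12593 tested genes rose. Pnpla3, Mgll and Mogat1 rose and Mettl7a1 fell in wild-type livers, where 299 tested genes rose and 279 fell. The largest of these changes was that of Pnpla3, which encodes a droplet protein related to ATGL, with log2 changes of 4.85 ± 0.62 in het-labelled and 5.79 ± 0.59 in wild-type livers (edgeR adjusted p = 0.00828 and 0.00204). Pnpla2, which encodes the lipase that G0S2 inhibits, had log2 changes on HFD of -0.34 ± 0.18 in het-labelled and -0.43 ± 0.18 in wild-type livers, which did not pass (edgeR adjusted p = 0.364 and 0.222).

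Among 17 tested genes known as PPARG targets in fatty liver, 3 were lower in het-labelled livers on HFD (median log2 difference -1.0005), namely Gpd1, Anxa2 and Mogat1, which is in the droplet list too. Of all 12593 tested genes, edgeR called 44 lower (0.349%), with a median of 0.00. Gpd1, glycerol-3-phosphate dehydrogenase, stood at 367 ± 75.3 CPM in het HFD and 738 ± 2.62 CPM in wild-type HFD livers (log2 difference -1.01 ± 0.13, edgeR adjusted p = 0.0278). Of 19 PPARA targets 1 was lower, Ehhadh, a peroxisomal oxidation enzyme (log2 difference -0.58 ± 0.09, edgeR adjusted p = 0.0473), with a list median of -0.38. DESeq2 called 7 PPARG targets lower and 1 higher, Lpl, and 5 PPARA targets lower, where it called 171 of 12141 genes lower and 63 higher. Of 20 PPAR, RXR and other regulators, 0 were called between genotypes on HFD by edgeR, 0 at an unadjusted p under 0.05, and 0 by DESeq2. Of all 12593 tested genes, 1735 had an unadjusted edgeR p under 0.05 on HFD. On chow edgeR called 0 of these 17, 19 and 20 genes, with 6, 3 and 2 at an unadjusted p under 0.05, and DESeq2 called 2, 0 and 0. Of all 12593 tested genes, 1932 had an unadjusted edgeR p under 0.05 on chow. The 3 of 19 and 2 of 20 lay near or under that share, and the 6 of 17 lay above it. DESeq2 called 217 of 12473 genes on chow. Pparg stood at 12.0 ± 1.39 CPM in het HFD, 9.55 ± 0.324 in het chow, 14.7 ± 2.98 in wild-type HFD and 11.2 ± 0.153 in wild-type chow livers, with a genotype difference on HFD of -0.28 ± 0.16 (edgeR adjusted p = 0.468). A count per gene does not separate the form PPARγ2 from other forms, so its level was not measured. Ppara had a genotype difference on HFD of -0.07 ± 0.23 and Rxra of 0.28 ± 0.14 (edgeR adjusted p = 0.924 and 0.445). On HFD 1 of the 17 PPARG targets rose in het-labelled livers (median 0.06), Mgll, which codes for monoglyceride lipase and is in the droplet list too. In wild-type livers 7 rose (median 0.99), Mgll, Mogat1 and Cfd among them. Of these, Mogat1 and Cfd passed the low-count filter only through HFD libraries. DESeq2 called 5 in het-labelled and 7 in wild-type livers, of the 18 to which it gave an adjusted p. Of all 13137 genes it called 295 and 306 higher. Of the 19 PPARA targets 1 rose and 2 fell on HFD in het-labelled livers, and 4 rose in wild-type livers. Of all 12593 tested genes, edgeR called 193 higher and 187 lower in het-labelled livers, and 299 higher in wild-type livers. DESeq2 called 2 PPARA targets higher and 2 lower in het-labelled livers, and 5 higher in wild-type livers. The 2 that fell, Cyp4a10 and Cyp4a14, stood at 218 and 149 CPM in het chow library 3 and at 519 and 724 CPM in library 4. Among the regulators Srebf1, a transcription factor of lipid synthesis, rose on HFD in both genotypes, with log2 changes of 2.11 ± 0.38 in het-labelled and 2.15 ± 0.38 in wild-type livers (edgeR adjusted p = 0.0269 and 0.0175). Mlxipl, which encodes the carbohydrate-responsive factor ChREBP, had 0.72 ± 0.12 in het-labelled livers, which passed, and 0.39 ± 0.12 in wild-type livers, which did not (edgeR adjusted p = 0.0230 and 0.120). DESeq2 also called Ppara and Cebpa higher on HFD in both genotypes, which edgeR did not. For Ppara the log2 changes were 0.87 ± 0.23 in het-labelled and 0.68 ± 0.23 in wild-type livers (edgeR adjusted p = 0.0923 and 0.155).

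**Figure D4:**
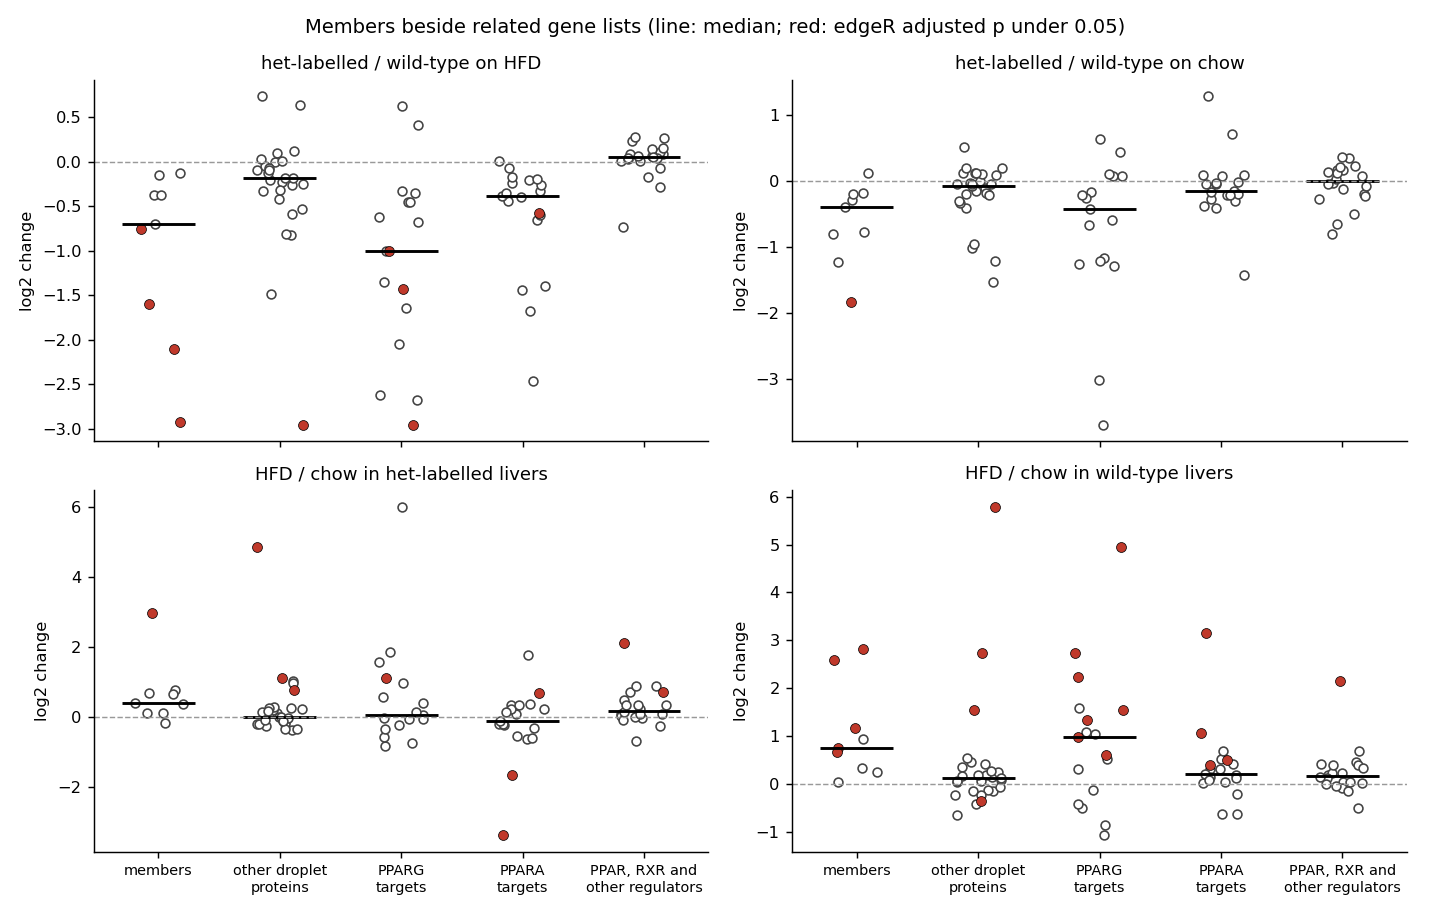
Log2 change (vertical axes, with their own scales) of the members without Cidea and of 4 related lists in 4 comparisons; points are genes, red points passed the edgeR test at an adjusted p under 0.05 and lines are medians. For het-labelled against wild-type livers on HFD, the medians of all lists but the regulators lie under 0, and that of the regulators lies at 0.06.

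Genes with the pattern most like each called member over the 8 libraries were found by the root mean square difference of log2(CPM + 0.5), each gene centred on its mean. For Cidec these were Mogat1 (0.438), Smpd3 (0.450) and Hr (0.452), where the spread of Cidec itself was 1.31. Fitm1 was closest to Lgals1 (0.297), Fam83f (0.324) and Treh (0.380), with a spread of 1.10. Lgals1, galectin-1, stood at 3.93 ± 2.64 CPM in het HFD, 4.15 ± 1.54 in het chow, 26.7 ± 5.66 in wild-type HFD and 11.6 ± 2.18 in wild-type chow livers (SD, n = 2). For G0s2 they were 1810055G02Rik (0.447), Fasn (0.451), which encodes fatty acid synthase, and Gpr98 (0.455), against a spread of 1.43. Among the genes closest to Plin4 were Sulf2 (0.336) and Mtnr1a (0.355), with a spread of 0.834. Plin5 was closest to Als2cr4, Nme6 and Ppp2r1b (0.118 to 0.139, spread 0.334), and Plin2 to Rad51l1, Tnfaip8l1 and Chrna2 (0.120 to 0.141, spread 0.426). Rad51l1 lay at 0.244 to 1.21 CPM as group means, where the added 0.5 narrows differences. The same holds for the low group means of Mogat1 (down to 0.244 CPM), Hr (0.241), Treh (0.339) and Fam83f (0.452).

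**Figure D5:**
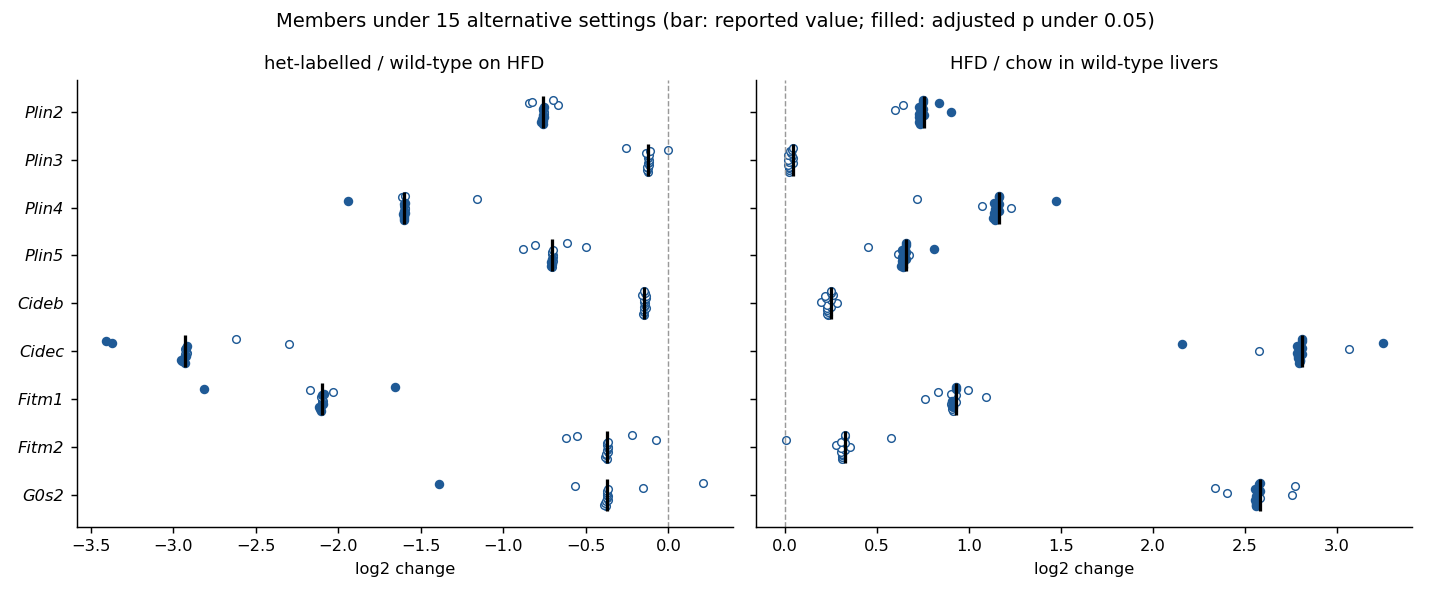
Log2 change of 9 members (horizontal axis) as reported (bars) and under 15 alternative settings (circles, filled where the adjusted p was under 0.05), for the genotype difference on HFD on the left and the diet change in wild-type livers on the right. Circles stay on the side of the reported value except for G0s2 between genotypes, which reaches 0.21 without library 8.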

How the data were processed

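RNA-seq read counts of 8 mouse liver libraries were used. The authors deposited whole-number counts per gene, not normalized, per the file headers and values. Build mm9 and the tools CASAVA, HTSeq, TopHat2 and DESeq are named per the submitters' processing notes; versions, settings, strand use and the treatment of multiply matching reads are not given in the sources used here. Groups come from the sample titles.

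Counts were fitted with edgeR 4.0.16 in R 4.3.3: filterByExpr kept 12593 of 22946 rows, library sizes were scaled by TMM, and the quasi-likelihood fit had a mean for each of 4 groups over 8 libraries, with a common biological coefficient of variation of 11.2%. P-values were 2-sided and adjusted over all tested genes (Benjamini-Hochberg), with calls under 0.05. Each SE is the log2 change divided by the square root of its F statistic. The procedure was tested on simulated data. Alternatives included DESeq2 1.42.0, other scalings and filters, and leaving out each library; where that left a group with 1 library, it is assumed to vary like the others. Paired within a group, libraries had a chi-square of 15.8 to 17.3 per degree of freedom, above sampling noise. The limit of 3 counts covers counting error only.

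The members, gene lists and rule for named genes were chosen with earlier results of these data known. The rule names all members, allows called genes of the droplet and regulator lists and up to 4 called genes of each target list, and names a fixed panel and the 3 genes most like each called member, of which 1 is not reported here. Marker genes and genes called by DESeq2 alone were named after their values were seen.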

Additional observations from a re-analysis of the deposited data

How the results depend on the processing

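Members called numbered 1 for the diet in het-labelled and 5 in wild-type livers, 4 for the genotype on HFD and 1 on chow, and 0 for the interaction. Without 1 library these counts ranged from 0 to 2, 0 to 6, 0 to 4, 0 to 1 and 0 to 0. With only the 4 libraries compared, the diet change under the het label gave 0 called members and the genotype on HFD gave 0. The robust prior gave 0 for the same diet change and 0 for the genotype on chow, where DESeq2 and no filter gave 2 each. The causes were not tested. Of the alternative values of single members, 626 kept direction and side of the threshold, 51 lost and 22 gained a call, and 10 changed sign, none of them called and all of them with 1 library left out. Over libraries left out, the diet change in het-labelled livers ran from -0.349 to 0.0007 for Fitm2 (highest without library 3), from -0.0437 to 1.116 for Fitm1 (lowest without 7) and from -0.0136 to 0.237 for Plin3 (lowest without 8). The genotype difference ran from -1.388 to 0.208 for G0s2 on HFD (highest without 8) and from -0.0460 to 0.263 for Fitm2 on chow (lowest without 3). The interaction ran from -0.0543 to 0.197 for Plin3 (-0.0065 without 3, lowest without 8), from -0.706 to 0.0668 for Plin4 (highest without 6), from -0.971 to 0.188 for Fitm1 (highest without 8) and from -0.615 to 0.982 for G0s2 (lowest without 7). Other scalings changed no member's direction. Over all genes, calls for the genotype on HFD were 56 in edgeR, 92 with library totals alone, 101 with the robust prior, 26 with only the 4 libraries compared, 234 in DESeq2 and 258 without a filter. On chow they were 65 (41 higher and 24 lower) in edgeR, 114 with the robust prior, 217 (83 higher and 134 lower) in DESeq2 and 314 without a filter. Calls for the diet in het-labelled livers were 380, with 680 under no filter and 105 from only the 4 libraries compared, and in wild-type livers 578, with 1351 from only the 4 libraries. For the interaction they were 0, with 2 under the robust prior, 8 without a filter and 28 in DESeq2. No paired analysis was possible because each of the library numbers 1 to 8 occurs in a single group. With 2 libraries a group, differences near the spread between libraries were not detectable, and Cidea had few or no reads outside wild-type HFD livers.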

Other observations

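Het HFD libraries 7 and 8 differed for several droplet-related genes, which were picked after their values were seen. Cfd, a serine protease known from fat cells, had 90 counts in library 7 and 4 in library 8. G0s2 was 3.02 times, Fitm1 2.23 times and Cidec 1.72 times as high in library 7 as in library 8, while Plin4 and Cideb were within 1.02 times. Kupffer cell and macrophage markers summed to 294 CPM in library 7 and 184 CPM in library 8.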
